A study of Mus musculus with 151 samples.

Results

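The mRNA levels of 9 genes for cytosolic calcium-binding proteins, *Ocm*, *Calb1*, *Calb2*, *Pvalb*, *Sri*, *S100a1*, *S100b*, *Calm2* and *Efhd2*, were followed in single hair cells of the mouse cochlea. The 9 genes were listed by name, and all 9 were found among the 55291 genes with deposited counts. Each of the 151 libraries held 1 manually picked cell of a C57BL/6 mouse. There were 55 P14_WT IHCs (inner hair cells at postnatal day 14), 46 P14_iOHCs of the same age and 50 P30_WT IHCs (postnatal day 30). Both groups of WT IHCs carried the alleles vGlut3-P2A-iCreER/+ and Ai9/+, and the P14_iOHCs carried vGlut3-P2A-iCreER/+, *Tbx2* flox/- and Ai9/+. In all 3 groups a tamoxifen-dependent Cre was therefore expressed from the locus of *Slc17a8*, the vesicular glutamate transporter of IHCs, and the Ai9 reporter gave Tdtomato to cells with Cre activity. Tamoxifen was given on P2 and P3. The P14_iOHCs also had 1 germline null allele of *Tbx2*, which no WT mouse had, so that loss of the gene after birth and the lack of 1 allele throughout development cannot be told apart. How many mice gave the cells of a group is not stated in the sources used here, so n counts cells throughout, and the P14_iOHCs were picked by reporter and by cell size.

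Calcium that enters a hair cell through its transduction and voltage-gated channels is bound by abundant cytosolic proteins, most of which use a helix-loop-helix motif called the EF-hand. Some of these proteins act mainly as mobile buffers, which set how far and how fast calcium spreads, whereas others act as sensors that change shape and bind to target enzymes and channels. In the mammalian cochlea calretinin, the product of *Calb2*, is a well-known marker of IHCs, and oncomodulin, the product of *Ocm*, is a well-known marker of outer hair cells (OHCs).

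Cells had between 4326416 and 25035444 counts in total (median 15557333). Values are given as CPM, the count of a gene per 1000000 counts of that cell, and 3 counts correspond to between 0.120 and 0.693 CPM in the 151 cells. *Tbx2*, which encodes the deleted transcription factor, had 260 ± 127 CPM (SD, n = 55) in P14_WT IHCs, 69.3 ± 87.4 CPM (SD, n = 46) in P14_iOHCs and 193 ± 103 CPM (SD, n = 50) in P30_WT IHCs. The germline null allele lacks the whole locus, whereas Cre removes a single exon of the floxed allele. The counts cover the whole gene, so these values do not show which cells lost the gene. The part of the null allele in the lower *Tbx2* level was not tested. *Slc26a5*, which encodes the OHC motor protein prestin, was counted in 46 of 46 P14_iOHCs, 2 of 55 P14_WT IHCs and 2 of 50 P30_WT IHCs. *Slc17a8* fell from 1230 ± 317 CPM (SD, n = 55) in P14_WT IHCs to 123 ± 194 CPM (SD, n = 46) in P14_iOHCs, with an adjusted p of 3.24e-09 by edgeR's quasi-likelihood test. In 3 of the 46 P14_iOHCs, numbers 1, 18 and 44, *Slc17a8* lay within the range of the P14_WT IHCs. The log2 fold change of *Calb2* and the mean shares of *Ocm*, *Calm2* and *Calb2* are also given without these cells.

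The first comparison asked how the calcium-binding genes of IHCs differ once *Tbx2* is deleted and the cells take the labelled iOHC form. *Ocm*, *Efhd2*, *S100a1*, *Sri* and *S100b* rose in P14_iOHCs relative to P14_WT IHCs, *Calb2* fell, and *Calm2* fell by less than the fold threshold. *Pvalb* and *Calb1* did not pass the test. Thus 5 of 9 genes rose and 1 of 9 fell at an adjusted p below 0.05 with an absolute log2 fold change above 2. At that rule 6.37% of the 13673 tested genes were called higher and 3.31% lower. With no threshold on the fold, 5 of 9 genes were higher and 2 of 9 lower, against 8.87% and 5.52% of all tested genes. All 9 genes passed the filter on low counts. Their median log2 fold change was 2.02, and that of all tested genes was 0.11.

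**Figure D1:**
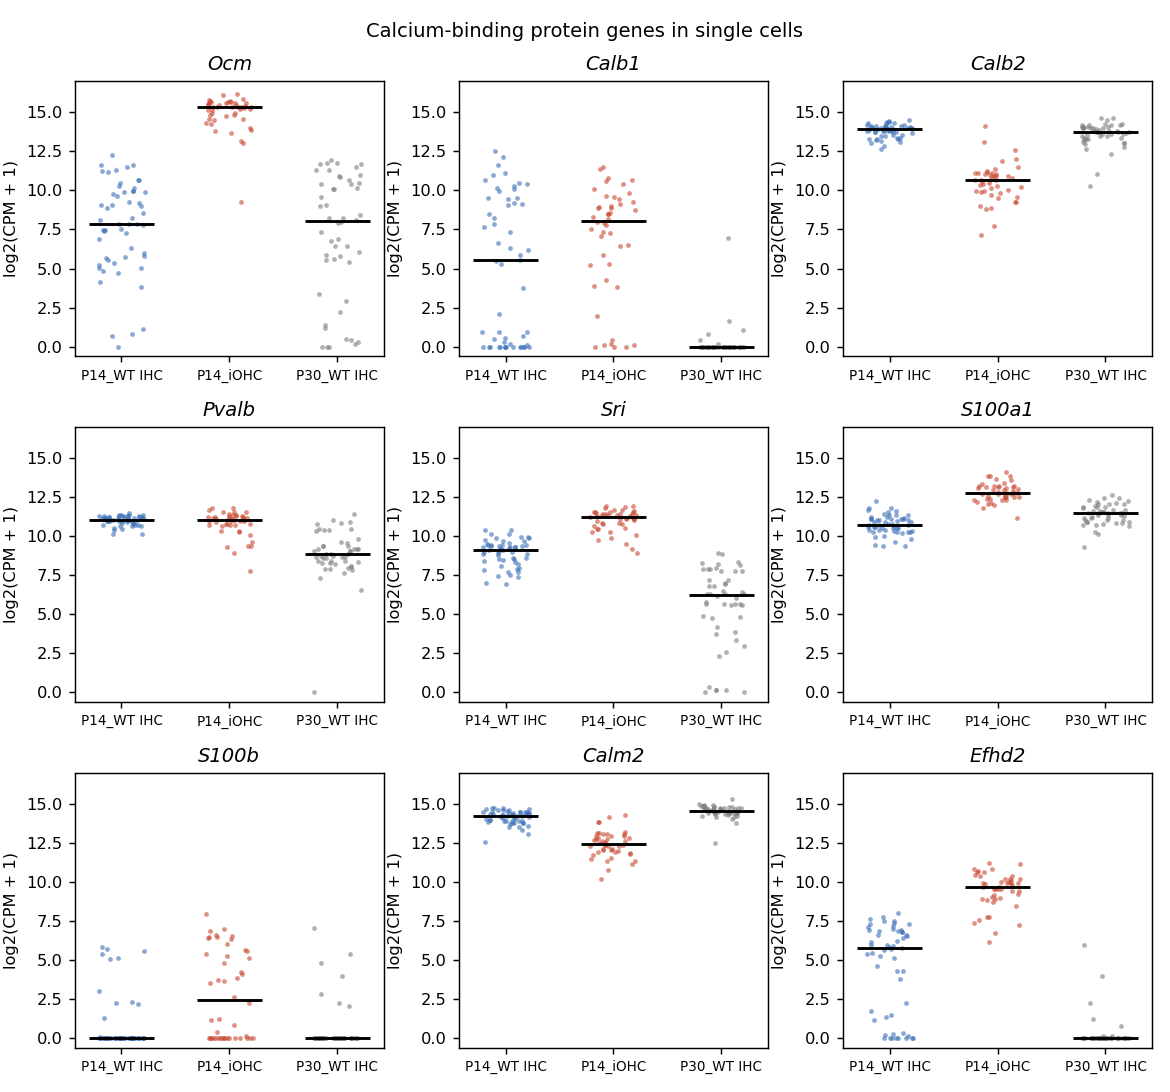
Level of each of the 9 genes in every cell, as log2(CPM + 1) on the vertical axis, with the 3 groups side by side on the horizontal axis. Each point is 1 cell and the black line is the median of the group. *Ocm* in P14_iOHCs lies above every P14_WT IHC in 45 of 46 cells and *Calb2* below every P14_WT IHC in 44 of 46 cells.

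Among the buffers, the largest difference between the groups at P14 was that of *Ocm* (ENSMUSG00000029618.13, GRCm38 chromosome 5, 144019804 to 144026670, minus strand). Its protein, oncomodulin, is a small parvalbumin of OHCs. Its lowest, median and highest levels were 0, 229 and 5007 CPM in P14_WT IHCs and 614, 40702 and 74981 CPM in P14_iOHCs. The mean was 744 ± 1046 CPM (SD, n = 55) in the former and 37457 ± 16305 CPM (SD, n = 46) in the latter, a ratio of means of 50.4. All P14_iOHCs but 1 lay above the highest P14_WT IHC, and the exception was P14_iOHC 44, with 614 CPM. The log2 fold change was 5.71 ± 0.45 (SE), with an adjusted p of 5.31e-20 by edgeR's quasi-likelihood test. *Ocm* was also counted outside P14_iOHCs, in 54 of 55 P14_WT IHCs and 47 of 50 P30_WT IHCs.

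*Calb2* (ENSMUSG00000003657.9, GRCm38 chromosome 8, 110137502 to 110168210, minus strand) moved in the opposite direction. Its lowest, median and highest levels were 6371, 15753 and 23070 CPM in P14_WT IHCs and 142, 1598 and 17827 CPM in P14_iOHCs. The mean fell from 14956 ± 3923 CPM (SD, n = 55) to 2154 ± 2805 CPM (SD, n = 46), which is 6.94-fold lower, with a log2 fold change of -2.80 ± 0.20 (SE) and an adjusted p of 2.13e-22. The groups overlapped through 2 cells, since 44 of 46 P14_iOHCs lay below every P14_WT IHC. The highest P14_iOHC was number 1, and without the 3 cells in the *Slc17a8* range of the P14_WT IHCs the log2 fold change of *Calb2* was -3.10.

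*Pvalb* (ENSMUSG00000005716.16, GRCm38 chromosome 15, 78191114 to 78206400, minus strand) encodes parvalbumin alpha, the buffer most closely related to oncomodulin. It had 1104, 2111 and 2847 CPM as lowest, median and highest level in P14_WT IHCs and 219, 2104 and 3622 CPM in P14_iOHCs. The distribution was wider in P14_iOHCs on both sides, with 6 cells above and 7 cells below every P14_WT IHC, while the means were 2099 ± 400 CPM (SD, n = 55) and 2014 ± 797 CPM (SD, n = 46). The log2 fold change was -0.04 ± 0.10 (SE), with an adjusted p of 0.9.

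*Calb1* (ENSMUSG00000028222.2, GRCm38 chromosome 4, 15881264 to 15908064, plus strand) encodes calbindin-D28k, a buffer with a structure like that of calretinin. In P14_WT IHCs its levels ran from 0 through a median of 45.8 to 5821 CPM, and in P14_iOHCs from 0 through a median of 265 to 2831 CPM. The means were 583 ± 1124 CPM (SD, n = 55) and 501 ± 669 CPM (SD, n = 46), and the gene was counted in 41 of 55 and 43 of 46 cells. The ranges overlapped almost fully, and the log2 fold change was -0.21 ± 0.71 (SE), with an adjusted p of 0.923. Mean and median differed in direction for this gene.

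*Calm2* (ENSMUSG00000036438.13, GRCm38 chromosome 17, 87433412 to 87446935, minus strand) encodes calmodulin, the main calcium sensor of the cytosol. *Calm3* encodes the same protein from a separate gene, so that the first 60 coding bases of both are shown here to make plain how their reads can be told apart. The sequences are those of the GENCODE M21 transcripts, written 5′ to 3′, and capitals mark the 8 positions at which the genes differ.
Calm2: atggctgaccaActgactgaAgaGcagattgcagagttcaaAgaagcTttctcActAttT
Calm3: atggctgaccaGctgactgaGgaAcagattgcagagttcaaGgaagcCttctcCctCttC
Over the 450 coding bases, *Calm2* was identical to *Calm3* at 82.7% of positions. The longest identical run was 17 bases, short against a sequencing read. The pseudogenes *Gm15720* and *Gm7308* carry near-identical copies of part of *Calm2*, with 98.2% identity over 276 bases and 96.9% identity over 447 bases, and reads of *Calm2* could have been split with them. *Gm7308* had a mean of 0.726 CPM in P14_WT IHCs, 0.496 CPM in P14_iOHCs and 0.747 CPM in P30_WT IHCs.

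In P14_iOHCs *Calm2* fell while *Calm3* did not pass the test. *Calm2* had a lowest, median and highest level of 6030, 19449 and 27492 CPM in P14_WT IHCs and of 1176, 5641 and 20359 CPM in P14_iOHCs. Of the 46 P14_iOHCs, 26 lay below every P14_WT IHC and the others overlapped with them. The mean fell from 18865 ± 4975 CPM (SD, n = 55) to 6466 ± 3982 CPM (SD, n = 46), with a log2 fold change of -1.52 ± 0.13 (SE) and an adjusted p of 4.54e-18. *Calm3*, with 232 ± 90.2 CPM (SD, n = 55) and 267 ± 118 CPM (SD, n = 46), had a log2 fold change of 0.23 ± 0.15 (SE) and an adjusted p of 0.37.

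*Sri* and *Efhd2* rose as well. *Sri* (ENSMUSG00000003161.15, GRCm38 chromosome 5, 8046078 to 8069379, plus strand) encodes sorcin, a penta-EF-hand protein that moves to membranes when it binds calcium and acts on ryanodine receptors. Its lowest, median and highest levels were 123, 566 and 1353 CPM in P14_WT IHCs and 485, 2382 and 3871 CPM in P14_iOHCs, with 38 of 46 P14_iOHCs above every P14_WT IHC. The mean rose from 571 ± 300 CPM (SD, n = 55) to 2263 ± 886 CPM (SD, n = 46), with a log2 fold change of 2.02 ± 0.15 (SE) and an adjusted p of 2.19e-23. The fold of *Sri* thus lay close to the threshold.

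*Efhd2* (ENSMUSG00000040659.3, GRCm38 chromosome 4, 141858142 to 141874920, minus strand) encodes swiprosin-1, an EF-hand protein that binds actin. It ran from 0 through a median of 54.7 to 252 CPM in P14_WT IHCs and from 71.6 through a median of 816 to 2409 CPM in P14_iOHCs. Of the 46 P14_iOHCs, 39 lay above every P14_WT IHC. The mean was 68.3 ± 67.5 CPM (SD, n = 55) against 897 ± 557 CPM (SD, n = 46), with a log2 fold change of 3.75 ± 0.46 (SE) and an adjusted p of 1.34e-10.

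The S100 proteins are small EF-hand dimers. *S100a1* (ENSMUSG00000044080.9, GRCm38 chromosome 3, 90511034 to 90514392, minus strand) encodes a member best known from heart and skeletal muscle, with 653, 1712 and 4974 CPM as lowest, median and highest level in P14_WT IHCs and 2275, 7039 and 17373 CPM in P14_iOHCs. In 40 of 46 P14_iOHCs it lay above every P14_WT IHC. The mean rose from 1881 ± 834 CPM (SD, n = 55) to 7868 ± 3249 CPM (SD, n = 46), with a log2 fold change of 2.10 ± 0.12 (SE) and an adjusted p of 1.52e-28.

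*S100b* (ENSMUSG00000033208.7, GRCm38 chromosome 10, 76253853 to 76261159, plus strand), widely used as a marker of glia, had low and scattered counts. It was counted in 12 of 55 P14_WT IHCs and in 29 of 46 P14_iOHCs, with medians of 0 and 4.50 CPM and highest levels of 56.3 and 242 CPM. On average it had 5.11 ± 13.9 CPM (SD, n = 55) against 30.8 ± 48.8 CPM (SD, n = 46), and 10 P14_iOHCs lay above every P14_WT IHC. The log2 fold change was 2.64 ± 0.92 (SE), with an adjusted p of 0.0376 by edgeR's quasi-likelihood test and of 0.0594 by DESeq2. On simulated counts, false calls of this fit sat mostly in genes counted in under 40% of the fitted cells, and *S100b* lies close to that line. Among the genes counted in at least 40% of the fitted cells, 3.4% were called higher and 2.17% lower by the rule with a fold threshold, and 7.06% and 5.41% at any fold.

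Both S100 genes moved with markers of supporting cells, the non-sensory cells that surround hair cells. The supporting cell score, the mean log2(CPM + 1) of 18 supporting cell genes, was 1.43 ± 1.08 (SD, n = 55) in P14_WT IHCs, 2.97 ± 1.76 (SD, n = 46) in P14_iOHCs and 1.46 ± 0.770 (SD, n = 50) in P30_WT IHCs. At any fold 8.87% of all tested genes were higher at P14 and 5.52% lower. Of the 18 genes 14 passed the count filter at P14, and 7 of them were called higher in P14_iOHCs (*Gjb2*, *Gjb6*, *Epyc*, *Otog*, *Otogl*, *Sox10* and *Slc1a3*) and *Tecta* lower. Sparsely counted genes can pass this filter through the group where they are high, and with the stricter filter of edgeR's filterByExpr 5 genes were tested and 4 were higher. The summed level of the list ranged from 3800 to 9150 CPM in P14_WT IHCs, from 2281 to 20922 CPM in P14_iOHCs and from 1002 to 8622 CPM in P30_WT IHCs. Most of this sum came from *Fbxo2*, and without that gene the sum had medians of 9.31, 939 and 89.7 CPM in the same order. The median was 0 for 17 of the 18 genes in P14_WT IHCs, 8 in P14_iOHCs and 14 in P30_WT IHCs. The 8 genes in P14_iOHCs were *Tecta*, *Sox2*, *Lfng*, *Hes5*, *Sparcl1*, *Matn4*, *Ednrb* and *Fgfr3*.

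Across the 46 P14_iOHCs, which share a method of picking and differ in depth, the score had a Spearman's rho of 0.82 with *S100b* and of 0.69 with *S100a1*. It had a rho of -0.46 with *Ocm*, -0.57 with *Calm2* and -0.62 with *Pvalb*. The 5 genes thus fell on both sides, with the S100 genes rising and the other 3 falling along the score. With the score as a covariate of the fit, the log2 fold change of *S100b* was -1.58 with an adjusted p of 0.313, whereas that of *S100a1* was 1.70 with an adjusted p of 3e-28 and that of *Sri* was 2.27. Without the 8 P14_iOHCs whose score lay above every P14_WT IHC, *S100b* had an adjusted p of 0.15 and the log2 fold changes of *S100a1* and *Ocm* were 1.94 and 5.92. The part of supporting cell RNA in the difference of *S100b* was not tested further.

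**Figure D2:**
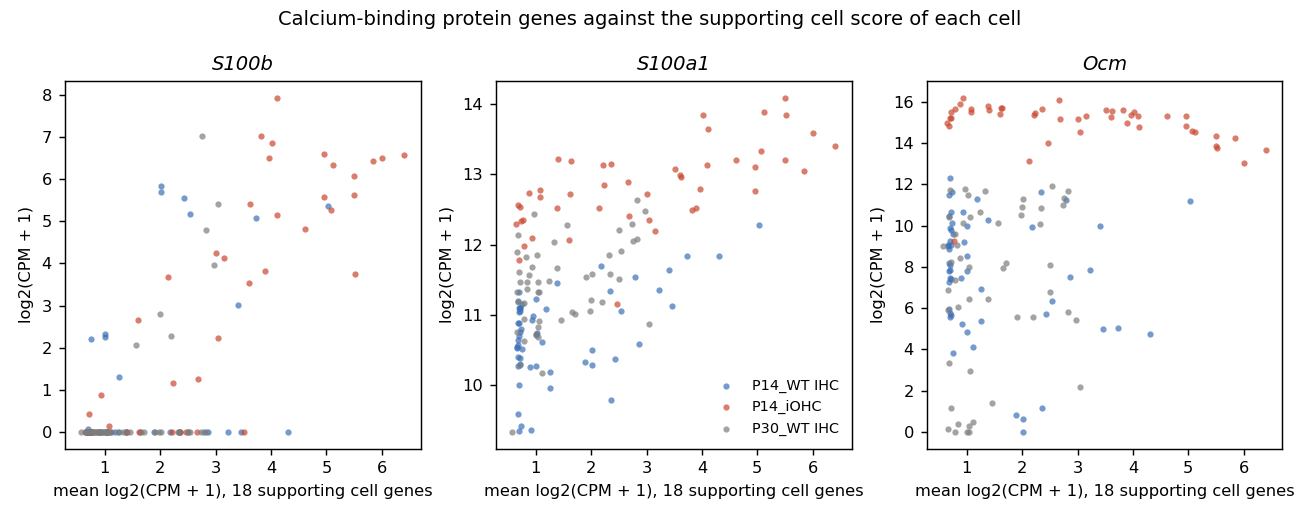
Levels of *S100b*, *S100a1* and *Ocm*, as log2(CPM + 1) on the vertical axes, against the supporting cell score, the mean log2(CPM + 1) of 18 supporting cell genes, on the horizontal axes. Each point is 1 cell, coloured by group. In P14_iOHCs the *S100b* level follows the score (Spearman's rho 0.82), and *Ocm* has a rho of -0.46 with it.

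The other marker lists differed in size and were read at any fold. At that rule 8.87% of all tested genes were higher and 5.52% lower. In P14_iOHCs against P14_WT IHCs, 2 of 5 tested neuronal genes were lower (*Nefl* and *Nefm*), 1 of 3 fibroblast genes was higher (*Lum*), 0 of 4 blood genes passed (0 at an unadjusted p below 0.05 and 0 by DESeq2) and the only tested immune gene, *C1qb*, was lower. Of the 12 hair cell genes 2 were higher (*Tmc1* and *Atp2b2*) and 5 lower (*Myo6*, *Myo7a*, *Otof*, *Ush1c* and *Calb2*), and the list thus shares *Calb2* with the 9 genes. All 4 IHC reference genes were lower (*Slc17a8*, *Otof*, *Slc7a14* and *Tbx2*), of which *Tbx2* is the gene deleted by design. All 4 OHC reference genes were higher (*Slc26a5*, *Ikzf2*, *Lbh* and *Strc*). The median of *Slc26a5*, *Ikzf2* and *Lbh* was 0 in P14_WT IHCs. *Slc26a5*, counted in 2 of 55 of these cells, could pass the count filter only through the P14_iOHCs.

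**Figure D3:**
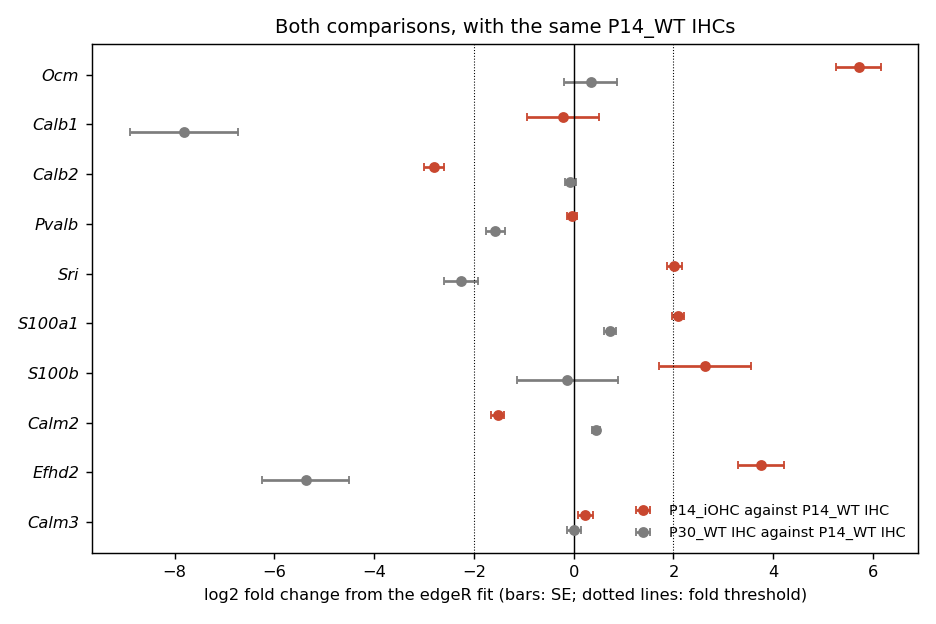
Log2 fold changes with their standard errors for the 9 genes and for *Calm3*, against P14_WT IHCs, for P14_iOHCs and for P30_WT IHCs. The dotted lines mark an absolute log2 fold change of 2. *Ocm* stands at 5.71 in P14_iOHCs and at 0.34 in P30_WT IHCs, while *Calb1* stands at -0.21 and -7.81. Both comparisons use the same P14_WT IHCs.

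The 9 genes were next viewed as a composition, as the share of each in their summed CPM in every cell. In P14_WT IHCs *Calm2* and *Calb2* took most of the sum, with 47.2 ± 6.62% and 37.6 ± 6.62% (SD, n = 55), and *Ocm* took 1.77 ± 2.39%. In P14_iOHCs *Ocm* took 59.9 ± 15.2% (SD, n = 46), with a lowest, median and highest share of 2.17%, 64.2% and 79.5%. *S100a1* followed with 15.4 ± 11.2%, *Calm2* with 11.5 ± 10.1% and *Calb2* with 3.66 ± 5.04%. The same genes were at the top in P30_WT IHCs, with 57.5 ± 5.33% for *Calm2* and 31.1 ± 7.99% for *Calb2* (SD, n = 50), and *Ocm* took 2.33 ± 3.07%. Without the 3 P14_iOHCs in the *Slc17a8* range of the P14_WT IHCs, the mean shares of *Ocm*, *Calm2* and *Calb2* in P14_iOHCs were 62.8%, 9.36% and 2.78%.

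Shares in CPM favour long genes, and *Ocm* and *S100a1* have short mRNAs with unions of exons of 733 and 694 bases, against 1467 for *Calm2*, 1743 for *Calb2* and 4852 for *Sri*. Divided by these lengths, the mean shares in P14_iOHCs were 68.2 ± 16.2% for *Ocm*, 18.4% for *S100a1*, 7.21% for *Calm2* and 1.96% for *Calb2*. In P14_WT IHCs they were 46.6% for *Calm2*, 31.4% for *Calb2*, 10.0% for *S100a1* and 3.42% for *Ocm*. The leading gene of each group was thus the same per length. The sum of the 9 genes took 3.98 ± 0.839% (SD, n = 55) of all counts in P14_WT IHCs, 5.97 ± 1.68% (SD, n = 46) in P14_iOHCs and 4.27 ± 0.935% (SD, n = 50) in P30_WT IHCs. As a percentage of TPM, which is scaled by length, the sums were 6.72%, 15.4% and 7.09%.

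**Figure D4:**
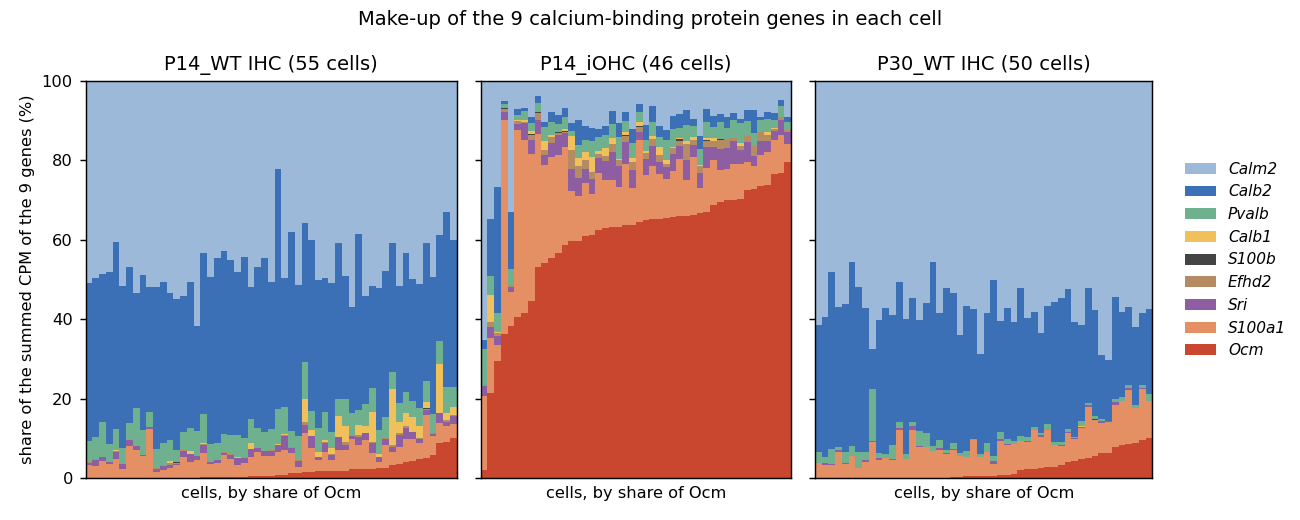
Share of each of the 9 genes in their summed CPM, in percent, as 1 stacked bar per cell, in 3 panels for the 3 groups, with cells ordered by the share of *Ocm*. *Calm2* and *Calb2* fill most of the bars of both groups of WT IHCs, and *Ocm* leads in 40 of 46 P14_iOHCs.

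The gene with the highest CPM among the 9 was *Calm2* in 46 and *Calb2* in 9 of 55 P14_WT IHCs, and *Calm2* in 48 and *Calb2* in 2 of 50 P30_WT IHCs. Among 46 P14_iOHCs it was *Ocm* in 40, *S100a1* in 3, *Calm2* in 2 and *Calb2* in 1. Per length, *Calm2* led in 52 of 55 P14_WT IHCs and 50 of 50 P30_WT IHCs, and *Ocm* in 42 of 46 P14_iOHCs. No WT IHC was led by *Ocm* on either scale.

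The switch between *Calb2* and *Ocm* was also read cell by cell. *Ocm* exceeded *Calb2* in CPM in 44 of 46 P14_iOHCs, in 0 of 55 P14_WT IHCs and in 0 of 50 P30_WT IHCs. Were the cells independent draws, the counts of 0 would allow shares of up to 5.45% and 6%. Cells of a group may share animals, so these limits do not cover the spread between mice. The mean log2 ratio of *Ocm* to *Calb2* was 4.44 ± 1.41 (SD, n = 46) in P14_iOHCs, -6.13 ± 2.96 (SD, n = 55) in P14_WT IHCs and -6.49 ± 4.29 (SD, n = 50) in P30_WT IHCs. Per length, *Ocm* exceeded *Calb2* in 46 of 46, 0 of 55 and 4 of 50 cells. Across the 46 P14_iOHCs *Ocm* and *Calb2* had a Spearman's rho of 0.26, so the cells with more *Ocm* were not those with less *Calb2*.

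**Figure D5:**
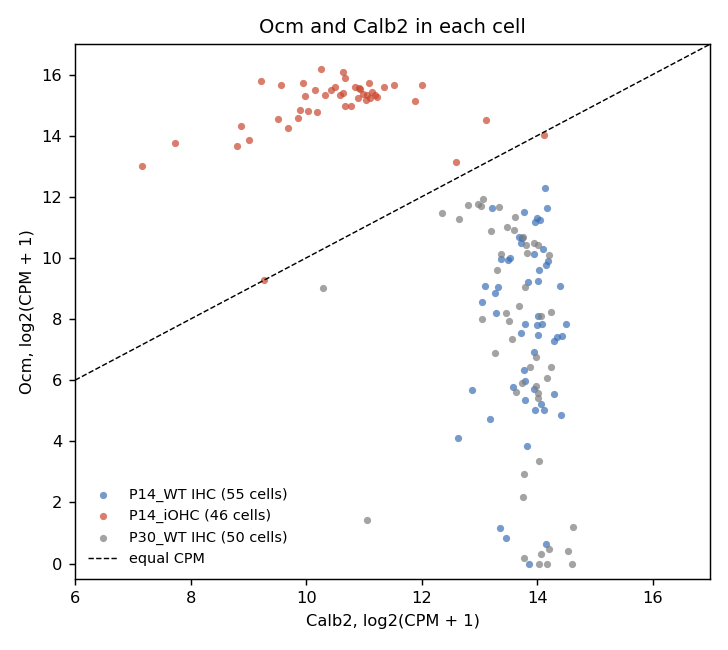
*Ocm* on the vertical axis against *Calb2* on the horizontal axis in every cell, with colours for the groups and a dashed line where both genes have the same CPM. Of the P14_iOHCs 44 of 46 lie above the line, and all WT IHCs of both ages lie below it.

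The 4 P14_iOHCs with the lowest ratio of *Ocm* to *Calb2* were chosen by that ratio and are described here. P14_iOHC 1 had 16575 CPM of *Ocm*, 17827 CPM of *Calb2* and 14914 CPM of *Calm2*, with 586 CPM of *Slc17a8* and 799 CPM of *Slc26a5*. P14_iOHC 44 had 614 CPM of *Ocm*, 615 CPM of *Calb2* and 18464 CPM of *Calm2*, with 722 CPM of *Slc17a8* and 142 CPM of *Slc26a5*. Its *Ocm* and *Calm2* levels both lay within the range of the P14_WT IHCs, and its *Calb2* level lay below that range. P14_iOHC 18 had 9093 CPM of *Ocm* and 6150 CPM of *Calb2*, and P14_iOHC 29 had 23598 CPM and 8836 CPM. *Tbx2* was at 268, 427, 264 and 136 CPM in cells 1, 44, 18 and 29, against a median of 41.4 CPM over all P14_iOHCs.

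Levels can be ranked between genes only per length, and TPM was used for this. In P14_WT IHCs the order was *Calm2* with 31540 ± 8587 TPM (SD, n = 55), *Calb2* with 20936 ± 5606 TPM, *S100a1* with 6632 TPM, *Pvalb* with 4918 TPM and *Ocm* with 2474 TPM, then *Calb1*, *Sri*, *Efhd2* and *S100b* between 298 and 8.52 TPM. Of the neighbours in this order, *S100a1* and *Pvalb*, *Pvalb* and *Ocm*, *Ocm* and *Calb1*, *Calb1* and *Sri*, and *Efhd2* and *S100b* differed by less than the larger of their SDs. In P14_iOHCs *Ocm* led with 110468 ± 44819 TPM (SD, n = 46), ahead of *S100a1* with 25022 ± 10641 TPM and *Calm2* with 9738 TPM. *Pvalb*, *Calb2*, *Sri*, *Efhd2*, *Calb1* and *S100b* followed with 4226, 2744, 1021, 827, 227 and 46.4 TPM, and *Calm2* and *Pvalb*, *Pvalb* and *Calb2*, *Calb2* and *Sri*, *Sri* and *Efhd2*, and *Calb1* and *S100b* differed by less than the larger of their SDs. In P30_WT IHCs *Calm2*, *Calb2* and *S100a1* led with 38396, 18253 and 9916 TPM, then *Ocm* with 2752 TPM and *Pvalb* with 1530 TPM, which differed by less than the larger SD, and the other 4 genes lay at or below 53.5 TPM.

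The second comparison set P30_WT IHCs against the same P14_WT IHCs and asks how the genes differ with age in the WT line. *Calb1*, *Sri* and *Efhd2* were lower at P30, *Pvalb* was lower by less than the fold threshold, and *S100a1* and *Calm2* were slightly higher. *Ocm*, *Calb2* and *S100b* did not pass the test. By the rule with a fold threshold 0 of 9 genes were higher and 3 of 9 lower, against 0.85% and 1.24% of the 12946 tested genes. *Calb1* and *Efhd2* had 3 counts or fewer in 46 and 45 of 50 P30_WT IHCs. They could thus pass the count filter only through the P14_WT IHCs, where they are high. With no threshold on the fold, 2 of 9 were higher and 4 of 9 lower, against 2.01% and 2.42%. Among genes counted in at least 40% of the fitted cells these shares were 0.501% higher and 0.545% lower with the fold threshold, and 2.17% and 2.24% without it. The median log2 fold change of the 9 genes was -0.13, and that of all tested genes was 0.04. Of the marker lists, 0 of 10 tested supporting cell genes passed (2 at an unadjusted p below 0.05 and 0 by DESeq2), *C1qb* of the immune list was lower, *Myo6* and *Myo7a* were higher and *Espn* lower among hair cell genes, and *Slc7a14* of the IHC reference was higher. None of the tested genes for neurons, fibroblasts, blood or the OHC reference passed by edgeR or by DESeq2, with 1, 0, 0 and 0 at an unadjusted p below 0.05.

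*Calb1* was nearly gone at P30. Its lowest, median and highest levels were 0, 0 and 121 CPM, it was counted in 6 of 50 cells, and 23 of 55 P14_WT IHCs lay above every P30_WT IHC. The mean was 2.51 ± 17.1 CPM (SD, n = 50), and the 49 cells other than the highest had a mean of 0.090 CPM, under the level of 3 counts, against 583 CPM at P14. The log2 fold change was -7.81 ± 1.09 (SE), with an adjusted p of 2.28e-08.

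*Efhd2* was also low at P30, with a lowest, median and highest level of 0, 0 and 61.4 CPM at P30 and counts in 7 of 50 cells. Of the P14_WT IHCs, 24 of 55 lay above every P30_WT IHC. The mean fell from 68.3 to 1.64 ± 8.87 CPM (SD, n = 50), or to 0.421 CPM over the 49 cells other than the highest, with a log2 fold change of -5.38 ± 0.88 (SE) and an adjusted p of 1.57e-06. *Sri* ran from 0 through a median of 74.4 to 475 CPM at P30, and 34 of 50 cells lay below every P14_WT IHC. Its mean of 113 ± 121 CPM (SD, n = 50) was 5.04-fold lower than at P14, with a log2 fold change of -2.26 ± 0.34 (SE) and an adjusted p of 2.82e-07.

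*Pvalb* ran from 0 through a median of 466 to 2734 CPM at P30, and 40 of 50 cells lay below every P14_WT IHC. Its mean of 677 ± 582 CPM (SD, n = 50) was 3.10-fold lower, with a log2 fold change of -1.57 ± 0.19 (SE) and an adjusted p of 2.45e-10. *S100a1* had 645, 2831 and 6327 CPM as lowest, median and highest level and overlapped widely with P14_WT IHCs, with 4 of 50 cells above all of them. Its log2 fold change was 0.73 ± 0.11 (SE), with an adjusted p of 4.28e-07. *Calm2*, with 5803, 23830 and 40017 CPM, also overlapped, with 11 of 50 cells above every P14_WT IHC, a log2 fold change of 0.45 ± 0.07 (SE) and an adjusted p of 3.62e-06. *Calm3* had a log2 fold change of 0.01 ± 0.13 (SE) with an adjusted p of 0.998.

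The genes that mark the switch at P14 did not pass the test between the ages. *Ocm* ran from 0 through a median of 265 to 3866 CPM at P30, all within the range of P14_WT IHCs, and had a log2 fold change of 0.34 ± 0.54 (SE) with an adjusted p of 0.937. *Calb2* ran from 1258 through a median of 13882 to 25321 CPM, with 3 cells above and 3 below every P14_WT IHC and a log2 fold change of -0.07 ± 0.11 (SE) with an adjusted p of 0.934. *S100b*, counted in 7 of 50 cells, had a log2 fold change of -0.13 ± 1.01 (SE) with an adjusted p of 0.994.

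Depth and mitochondrial share moved with some of these genes within the P30_WT IHCs. The total counts fell into a lower set of 51 cells and an upper set of 100 cells, and both sets held cells of all 3 groups. In P30_WT IHCs *Ocm* had 1442 ± 1371 CPM (SD, n = 23) in the lower set and 423 ± 681 CPM (SD, n = 27) in the upper set. *Calb2* had 10703 ± 5049 CPM (SD, n = 23) and 16190 ± 3579 CPM (SD, n = 27). Mitochondrial genes took 9.35 ± 4.94% of the counts in P30_WT IHCs, against 6.54 ± 3.24% in P14_WT IHCs and 6.24 ± 1.65% in P14_iOHCs, and this share had a Spearman's rho of -0.45 with *Calm2* and of -0.47 with *Pvalb* across the 50 P30_WT IHCs. The part of these measures in the comparison of ages was not tested.

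The correlations between the genes within a group were taken as descriptions, since cells of a group share their picking, may share animals and differ in depth. In P14_iOHCs *Ocm*, *Sri* and *Efhd2* varied together, with a Spearman's rho of 0.59 for *Ocm* and *Sri*, 0.53 for *Ocm* and *Efhd2* and 0.63 for *Sri* and *Efhd2* (n = 46 cells). In the same order, these genes had a rho of -0.46, -0.42 and -0.43 with the supporting cell score. With the number of genes counted in a cell, they had a rho of -0.57, -0.46 and -0.38. The part of both measures in the joint variation was not tested. *Sri* had a rho of 0.66 with *Slc26a5*, and *Ocm* a rho of -0.55 with *Tbx2*. *Calm2* had a rho of 0.66 with *Pvalb* and of 0.57 with *Slc17a8*. *Calm2* thus ran with the IHC gene and *Sri* with the OHC gene.

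The same pairs were read in the WT IHCs, where *Ocm* was low. In P14_WT IHCs *Ocm* had a rho of 0.65 with *Calb1*, 0.48 with *Sri* and 0.45 with *Efhd2*, and *Calb1* had a rho of 0.57 with *Sri* (n = 55 cells). *Calb2* and *Calm2* had a rho of 0.56. In P30_WT IHCs *Ocm* had a rho of -0.14 with *Sri* and -0.04 with *Efhd2*, and *Sri* one of -0.05 with *Efhd2* (n = 50 cells), where *Efhd2* was counted in 7 cells. There *Ocm* had a rho of -0.61 with *Calb2*, -0.63 with *Pvalb* and 0.53 with *S100a1*, beside -0.45 with the total count. *Calb2* had a rho of 0.68 with the total count and -0.67 with the mitochondrial share, so that depth moved with both *Ocm* and *Calb2*.

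Among 8440 genes counted in at least 50% of the P14_iOHCs, the genes whose level followed *Ocm* most closely across the 46 cells were *Ndufb4*, *Prdx5* and *Cpne9*, with a Spearman's rho of 0.81, 0.69 and 0.68. Those most like *Calb2* were *Kifap3*, *Gm34653* and *Cox6a1*, with 0.69, 0.67 and 0.59. Those most like *S100b* were *Itpk1*, *Rnd2* and *Bcam*, with 0.84, 0.82 and 0.81. The order depended on the measure. Pearson's r with *Ocm* was 0.67 for *Ndufb4*, 0.86 for *Prdx5* and 0.77 for *Cpne9*, and that of *Gm34653* with *Calb2* was 0.48. As the highest of 8440 genes, such values run high by selection.

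The other genes of calcium binding and sensing were read from lists by family and role. In the comparison at P14, 6 of 14 S100 relatives of *S100a1* and *S100b* passed the count filter. With no threshold on the fold, all 6 of these relatives were called higher, against 8.87% of all tested genes. Of these, *S100a16* and *S100a4* were counted in 2 and 3 of 55 P14_WT IHCs and in 26 and 10 of 46 P14_iOHCs, so they could pass the filter only through the group where they are high. With filterByExpr, 4 genes were tested and 4 were higher. *S100a11* rose from 14.4 ± 28.9 CPM (SD, n = 55) to 181 ± 282 CPM (SD, n = 46), with a log2 fold change of 3.70 ± 0.88 (SE) and an adjusted p of 0.000884. *S100a10* rose by a log2 fold change of 3.61 ± 0.88 (SE), with an adjusted p of 0.00126, and *S100a13* by 3.05 ± 0.58 (SE), with an adjusted p of 2.62e-05. Like *S100b*, these genes moved with the supporting cell markers, with a Spearman's rho with the score of 0.89, 0.79 and 0.87 across the P14_iOHCs. With the score as a covariate their log2 fold changes were -0.59, 1.25 and 0.30, with adjusted p of 0.707, 0.209 and 0.866, so none of these 3 calls held. Without the 8 P14_iOHCs with high scores, the adjusted p were 0.0548, 0.0753 and 0.00622. Of the 6 tested relatives, 1 was still called higher with the score as a covariate. This was *S100a16*, with a log2 fold change of 6.26, an adjusted p of 6.36e-08 and a rho of 0.59 with the score. As it passed the count filter only through the P14_iOHCs, the kept call is not read as support. Without the 8 P14_iOHCs with high scores it was not among the tested genes.

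The remaining lists changed in small parts, against 8.87% of all tested genes higher and 5.52% lower at any fold. Of 19 tested penta-EF-hand and related EF-hand genes, 4 were higher (*Pls1*, *Pls3*, *Actn1* and *Actn4*, which bundle or crosslink actin) and 2 lower (*Pdcd6* and *Cib2*). *Pls3* was counted in 4 of 55 P14_WT IHCs and 16 of 46 P14_iOHCs, and with filterByExpr 3 of 16 tested genes were higher and 1 lower. *Pdcd6*, which encodes the penta-EF-hand protein ALG-2 and is thus a relative of *Sri*, fell from 1433 ± 428 CPM (SD, n = 55) to 265 ± 219 CPM (SD, n = 46), with a log2 fold change of -2.42 ± 0.20 (SE) and an adjusted p of 8.85e-19, and with the score as a covariate the log2 fold change was -2.24. *Cib2*, which binds the hair cell transduction channel, had a log2 fold change of -0.28, with an adjusted p of 0.0418, and of -0.04, with an adjusted p of 0.903, with the score as a covariate. Of 8 tested genes for calcium-binding proteins of synapses and neuronal sensors, *Cabp1* and *Cabp2* were lower. *Caln1* was also called higher, but it was counted in 1 of 55 P14_WT IHCs and 15 of 46 P14_iOHCs and was not called with filterByExpr. *Cabp1* and *Cabp2* encode regulators of the calcium channels of the IHC synapse, and *Cabp1* fell from 30.2 to 5.24 CPM, with counts in 53 of 55 and 12 of 46 cells, a log2 fold change of -2.52 ± 0.76 (SE) and an adjusted p of 0.0123. With the score as a covariate *Cabp1* had a log2 fold change of -2.22 and an adjusted p of 0.0507. *Cabp2* fell from 2520 to 1804 CPM, with a log2 fold change of -0.46 ± 0.10 (SE) and an adjusted p of 0.00014.

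Of 13 tested genes for calcium-binding proteins of the endoplasmic reticulum, *Calr*, which encodes calreticulin, was lower and none was higher. At the same rule 8.87% of all tested genes were higher and 5.52% lower, so single calls are not read as a result about a list. Of 19 tested genes for enzymes that calmodulin regulates, *Itpkb* was higher and *Itpka* and *Adcy1* lower. The latter were each counted in 2 of 46 P14_iOHCs, and in 37 and 16 of 55 P14_WT IHCs, and with filterByExpr 1 of 14 tested genes was higher and 1 lower.

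Between the ages the lists gave the following counts, against 2.01% of all tested genes higher and 2.42% lower at any fold. None of the 4 S100 relatives, 7 synaptic and neuronal sensors or 18 enzymes that were tested passed at any fold by edgeR's quasi-likelihood test or by DESeq2, and at an unadjusted p below 0.05 the counts were 0, 0 and 2. Of 18 tested penta-EF-hand and related genes 2 were lower at P30, *Pdcd6* with a log2 fold change of -0.62 and an adjusted p of 6.56e-07 and *Cib2* with -0.53 and 2.15e-09. Of 13 genes of the endoplasmic reticulum *Calr* was lower, with a log2 fold change of -0.57 and an adjusted p of 0.0298. *Cabp1* and *Cabp2* had log2 fold changes of 0.65 and -0.08, with adjusted p of 0.482 and 0.802.

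The promoters of the genes were searched for GGTGTGA, the core of the site that T-box factors such as TBX2 bind, on both strands (reverse complement TCACACC). RefSeq promoters of GRCm38.p6, with 300 bases each, were at hand for 6 of the 9 genes, with 7 promoters in all, and those of *Calb1*, *Calb2* and *Calm2* were not analysed here. The motif was in 0 of these 7 promoters, and 3.98% of all 32851 promoters held it. The RefSeq start of *Ocm* lies 23939 bases from the start of the gene in GENCODE M21, and the window does not cover that start. No match says only that these letters are not in the window.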

How the data were processed

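Single cells were amplified with a Smart-Seq HT kit by the authors, and paired-end reads were processed with FastQC 0.11.9, Trimmomatic 0.39, HISAT2 2.1.0, StringTie 1.3.5 and HTSeq 0.10.0 on GRCm38 (mm10), per the submitters' processing notes. The values deposited by the authors are counts of reads per gene, as whole numbers and not normalized, for 55291 gene symbols. Which annotation release the counting used, whether it used strand, and how it treated reads that align more than once are not given in the sources used here. The full-length reads carry no molecular identifiers and may repeat a molecule, so floors of 3 counts and limits for shares of 0 cells cover counting error only.

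The 9 genes and all lists were chosen with earlier results of these data known. Cells were assigned to groups by their labels. No 2 libraries of a group were identical. The replicates are cells, so p-values measure the spread between cells and not between mice. Groups were compared with edgeR 4.0.16 in R 4.3.3 (TMM, robust glmQLFit, glmQLFTest), after a filter that kept genes with 5 counts or more in 10 or more fitted cells, with Benjamini-Hochberg adjustment over all tested genes. Genes were called at an adjusted p below 0.05 and an absolute log2 fold change above 2, or, as a looser rule, at any fold; the counts for lists use the looser rule. The fits were tested on simulated data. The fitted log2 fold changes adjust for library composition, so they can differ from the ratio of mean CPM. TPM was computed here from the counts and the length of each gene's merged exons in GENCODE M21, which gave a length for 53292 genes, and is not a value of the authors. Shares and levels are descriptions without a test. Correlations used log2(CPM + 1). Copies of genes were searched with BLAST 2.17.0.

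Named genes are the 9 genes, *Tbx2*, *Slc17a8*, *Slc26a5*, *Calm3*, *Cabp1* and *Cabp2*; from the other calcium lists, up to 5 genes per list that were called with the fold threshold and counted in 80% or more of the higher group's cells; and, for *Ocm*, *Calb2* and *S100b*, the 3 genes most alike across P14_iOHCs. Other list genes are named beside counts of 5 or fewer, after their values were seen, as are *Fbxo2* and the 7 supporting cell genes. Numbers shared by cell labels of different groups did not pair the cells: the correlation of their deviations had a median of -0.0021 over 46 pairs and exceeded 0.1 in 0 of them. The alternatives, 16 per comparison, included DESeq2 1.42.0, limma 3.58.1, other filters and scalings, parts of the cells, covariates and a block. The omission of the 3 and of the 8 P14_iOHCs, the supporting cell sum without *Fbxo2* and the shares of called genes at 40% detection were added after seeing the data. Proteins were not analysed here, and a few genes, with the counts of the lists that turn on them, are not reported here. Python 3.11.15 with numpy 2.4.6, pandas 2.3.3, scipy 1.17.1 and matplotlib 3.10.9 was used for other steps.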

Additional observations from a re-analysis of the deposited data

How the results depend on the processing

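In the comparison at P14, the directions and calls of *Ocm*, *Calb2*, *Calm2* and *Efhd2* were kept in all 16 alternatives and in both omissions of P14_iOHCs added after seeing the data. The number of genes called higher was 3 in place of 5 with only the lower set of totals, with the supporting cell score as a covariate, without cells over 3 median absolute deviations, and without the 8 P14_iOHCs with high scores. In this order, 71 of 8542, 584 of 13673, 829 of 13558 and 507 of 13013 tested genes were called higher, against 871 of 13673 without these changes. *S100b* lost its call in each of these settings and also under DESeq2 (adjusted p 0.0594), with all 3 groups in the fit (0.0578), with the upper set of totals (0.124) and with the share of detected genes as a covariate (0.0876). Over all alternatives its adjusted p ranged from 0.000136, with limma on log2(CPM + 0.1), to 0.78 in the lower set. *Sri* fell just under the fold threshold without TMM (1.99) and without the deviating cells (1.98), and *S100a1* in the lower set (1.94), with the score (1.70) and without the 8 P14_iOHCs (1.94), each with an adjusted p far below the threshold. The other comparison kept 0 genes higher and 3 lower throughout, or 4 lower where limma put *Pvalb* past the fold threshold (-2.15 and -2.22). Leaving *Calm2* out of the sum raised the mean share of *Calb2* to 71.4% in P14_WT IHCs and 72.5% in P30_WT IHCs.

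Among the 9 genes and *Calm3*, the values that changed sign had passed no test in either setting, besides *S100b* with the score (-1.58). Of the S100 relatives, *S100a11* and *S100a4* were called higher at P14 and were -0.59 and -0.49 with the score, uncalled, and *S100a10* between the ages went from -0.36 (adjusted p 0.975) to 3.80 (0.00137) with it. For P14_iOHCs, *Calb1* was 1.81 and 2.49 with limma on log2(CPM + 1) and log2(CPM + 0.1), 0.15 in the upper set, 0.32 with the score, 2.02 in the replicate block and 0.0040 without the 8 cells, *Pvalb* was 0.0013 with all groups, 0.17 with the score and 0.16 without the 8 cells, and *Calm3* was -0.052 in the lower set. For P30_WT IHCs, *Ocm* was -0.58 and -0.85 with limma, -0.64 in the upper set, -0.15 with the set as a covariate and -0.31 in the replicate block. There *Calb2* was 0.11 and *S100b* 0.14 in the upper set. *Calm3* was -0.043 without TMM, -0.12 and -0.12 with limma, -0.21 in the lower set, -0.019 with detected genes as a covariate and -0.050 in the replicate block. The cause was not tested.

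The replicate block on cell numbers, which only name cells, kept 5 genes higher and 1 lower at P14 and 0 higher and 3 lower between the ages, with 1244 genes higher and 869 lower among all tested genes at P14 in place of 871 and 453, and 107 and 435 between the ages in place of 110 and 161. With no filter on counts, 4418 and 3436 genes were called at P14 and 2609 and 3185 between the ages, and with filterByExpr 241 and 181, and 25 and 36.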
